A study of Mus musculus with 8 samples.

Results

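The immediate early genes described here were 10 genes of rapidly induced transcriptional regulators, namely Fos, Fosb, Jun, Junb, Egr1, Ier2, Nr4a1, Nr4a2, Npas4 and Klf4. They were found by gene symbol in a table of 22632 genes measured in mouse pancreatic islets, which are small clusters of endocrine cells within the pancreas, and all 10 were present. Total RNA was sequenced in 8 libraries, 2 from each of 4 groups. The groups were Tcf7 -/- (knockout) mice aged 20 weeks on a high-fat (45%) diet, wild-type Tcf7 +/+ mice aged 20 weeks on the same diet, Tcf7 -/- mice aged 8 weeks on a low-fat (10%) diet, and Tcf7 +/+ mice aged 8 weeks on the low-fat diet. All mice had the C57BL/6 background, and the wild-type mice were littermates. Tcf7 encodes TCF-1, a DNA-binding partner of beta-catenin in Wnt signalling. Age and diet changed together, so their parts in any difference between 20 and 8 weeks cannot be told apart. The labels give neither the deleted part of Tcf7 nor the number of animals behind a library, and one field names regular chow where another names the low-fat diet.

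Values were RPM, the reads of a gene scaled by the authors to a common total per library. Totals were 58.7 to 191 M reads, of which listed genes held 55.7% to 61.2% at 20 weeks and 41.6% to 51.0% at 8 weeks. One read was worth 0.00523 to 0.0170 RPM, so even the lowest of the 10 genes rested on at least 238 reads in every library. At 20 weeks Tcf7 itself had 4.56 and 2.56 RPM in knockout-labelled and 1.58 and 0.991 RPM in wild-type libraries, and at 8 weeks it had 0.512 and 0.519 RPM in knockout-labelled and 0.277 and 0.381 RPM in wild-type libraries. It was thus not lower in the libraries labelled knockout, and reads summed across a gene cannot test a deletion of unstated extent, so each genotype direction rests on the labels. The islet hormone genes Ins1 and Ins2 were at 11828 RPM or more in every library, and Gcg, Sst, Ppy, Iapp and Pdx1 were present in all 8.

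Immediate early genes are transcribed within minutes of a stimulus, without new protein synthesis, by factors already in the cell such as CREB and the serum response factor. Their transcripts are short-lived, so that their level follows recent signalling. In islet beta cells, glucose, depolarisation with calcium entry and hormones that raise cAMP are known inducers, and the family also responds to handling of tissue. Fos and Fosb encode proteins that pair with Jun or Junb proteins to form the AP-1 transcription factor. Egr1 encodes a zinc finger factor, Nr4a1 and Nr4a2 encode orphan nuclear receptors (Nur77 and Nurr1), and Npas4 encodes a basic helix-loop-helix PAS factor induced by calcium entry. Ier2 encodes a nuclear protein induced by growth factors, and Klf4 a Krüppel-like zinc finger factor.

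Of the 10 genes, 8 matched a promoter window in the RefSeq set (GRCm38.p6), which runs from 250 bases before to 50 bases after the start. Ier2 and Egr1 had no entry. The 5-letter core of the CREB site, TGACG on either strand, was in 7 of the 8 windows, all but that of Jun, and in 20.8% of 32851 windows of the same length. Nr4a1 and Nr4a2 each held it 4 times, which 0.231% of all windows reached, and Npas4 and Fos each held it 2 times, which 5.01% reached. The windows of these 4 genes are printed because Npas4, Nr4a1 and Nr4a2 were higher at 20 weeks and Fos was the most abundant gene with no call. They are chr19:4989922-4990221 (minus strand) for Npas4, chr15:101266596-101266895 (plus) for Nr4a1, chr2:57123954-57124253 (minus) for Nr4a2 and chr12:85473640-85473939 (plus) for Fos. The RefSeq starts of Npas4 and Nr4a1 lie inside the longer gene models of GENCODE M21. Capitals mark TGACG or its reverse complement CGTCA, each 5′ to 3′ on the strand of the gene.
Npas4: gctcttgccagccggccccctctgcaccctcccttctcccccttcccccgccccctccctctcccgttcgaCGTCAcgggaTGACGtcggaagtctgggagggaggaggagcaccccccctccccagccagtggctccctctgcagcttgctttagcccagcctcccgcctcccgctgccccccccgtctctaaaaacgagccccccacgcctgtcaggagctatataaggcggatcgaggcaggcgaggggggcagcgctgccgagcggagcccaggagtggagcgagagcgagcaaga
Nr4a1: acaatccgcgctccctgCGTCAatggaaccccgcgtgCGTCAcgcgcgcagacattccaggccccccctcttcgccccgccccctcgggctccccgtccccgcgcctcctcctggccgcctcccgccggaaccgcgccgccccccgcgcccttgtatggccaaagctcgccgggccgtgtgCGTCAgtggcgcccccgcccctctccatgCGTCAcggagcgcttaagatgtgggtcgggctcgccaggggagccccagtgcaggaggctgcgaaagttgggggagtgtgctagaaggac
Nr4a2: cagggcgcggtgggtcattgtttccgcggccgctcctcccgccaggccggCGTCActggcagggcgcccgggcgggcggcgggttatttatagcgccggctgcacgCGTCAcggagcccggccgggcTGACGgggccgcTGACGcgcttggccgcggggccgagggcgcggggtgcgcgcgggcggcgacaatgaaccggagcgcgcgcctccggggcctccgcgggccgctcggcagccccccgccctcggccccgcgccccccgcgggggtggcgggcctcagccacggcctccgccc
Fos: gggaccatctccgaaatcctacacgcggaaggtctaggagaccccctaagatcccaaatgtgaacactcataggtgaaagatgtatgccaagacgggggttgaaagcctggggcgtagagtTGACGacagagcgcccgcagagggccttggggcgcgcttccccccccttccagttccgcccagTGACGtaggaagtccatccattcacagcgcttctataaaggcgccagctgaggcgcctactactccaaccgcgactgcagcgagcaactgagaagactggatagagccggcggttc

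The full 8-letter CREB site TGACGTCA was in none of the 8 windows and in 1.79% of all windows, and the AP-1 site TGANTCA was in none of the 8 and in 7.81% of all. An Egr site, GCGNGGGCG on either strand, was in 4 of the 8 (Fosb, Klf4, Nr4a1 and Nr4a2) and in 5.55% of all windows. The TCF/LEF letters CTTTGAT, on either strand, were in none of the 8 and in 3.73% of all. TATAAA on either strand was in 3 of the 8 (Fos, Junb and Nr4a2) and in 13.6% of all. Counted from the start, its first base was at -33 in Fos and at 1 in Junb, both on the strand of the gene. In Nr4a2 it was at -164 on the other strand. The CArG box, the binding site of the serum response factor, was in none of the 8 and in 1.63% of all. These are matches of letters in 300 bases and say nothing of whether a factor binds there.

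Per kilobase of exon, Fos was the most abundant of the 10 genes, with a level of 117 to 184 RPM per kb over the 8 libraries and a median of 130. Jun (median 43.6 RPM per kb) and Fosb (42.3) followed, with Jun above Fosb in 7 of 8 libraries. This order rests on the lengths used, the merged exons of all annotated transcripts, which were 6.243 kb for Fosb and 3.189 kb for Jun. Before division by length Fosb was above Jun in every library, for example at 414 against 239 RPM in knockout-labelled replicate 1 of 20 weeks. Egr1 (22.9) and Junb (22.3) came next, and Egr1 was above Junb in 3 of 8 libraries, so their order was not settled. Nr4a1 (12.2), Ier2 (10.1), Klf4 (3.86), Nr4a2 (3.59) and Npas4 (1.51) were lower, all as median RPM per kb. Klf4 was above Nr4a2 in 5 of 8 libraries, whereas Fos, Fosb, Junb and Ier2 were above the next gene in all 8. By the GENCODE M21 annotation (GRCm38), Npas4 lies on chr19:4984355-4990316 (minus strand), Nr4a1 on chr15:101254269-101274795 (plus), Nr4a2 on chr2:57106830-57124003 (minus) and Fos on chr12:85473890-85477273 (plus), and counts were of whole genes. Exons of Jun overlap the antisense RNA gene Junos over 232 bases and exons of Junb overlap Prdx2 on the other strand over 173 bases. No source used here states whether counting used strand, so reads in these stretches cannot be told apart. The other 8 genes overlap no annotated gene.

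**Figure D1:**
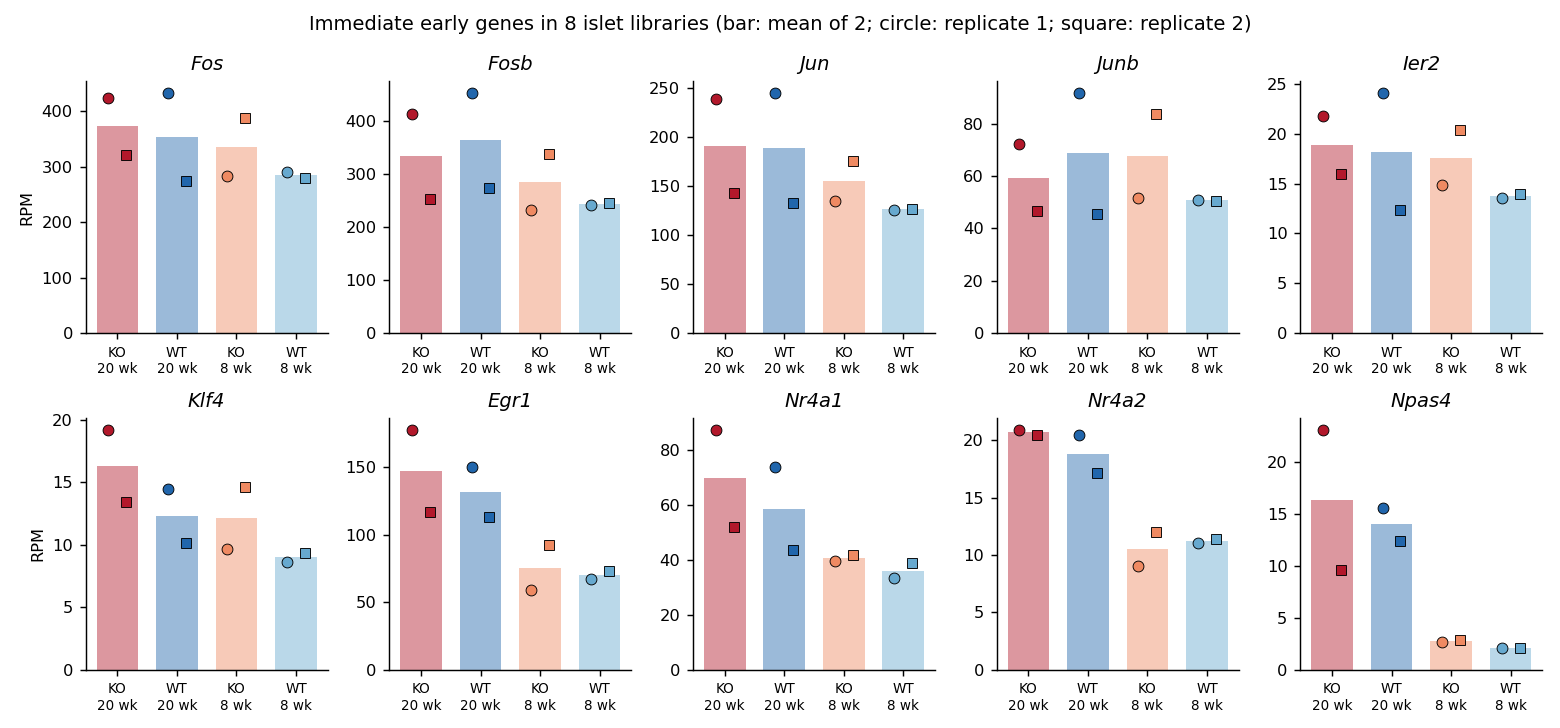
RPM of the 10 immediate early genes in each library, with groups from left to right KO at 20 weeks, WT at 20 weeks, KO at 8 weeks and WT at 8 weeks. Bars are means of 2 libraries, circles replicate 1 and squares replicate 2, and Egr1, Nr4a1, Nr4a2 and Npas4 are the genes whose 4 libraries at 20 weeks all lie above the 4 at 8 weeks.

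The comparison of 20 weeks on high fat with 8 weeks on low fat, averaged over genotypes, called 4 of the 10 genes higher and 0 lower. They were Npas4, Egr1, Nr4a2 and Nr4a1, the calcium-induced factor, the zinc finger factor and both orphan receptors, while none of the AP-1 genes passed. Of all 13347 genes tested, 31.2% were called higher and 6.05% lower by limma at an adjusted p under 0.05. The share of the 10 genes called higher was thus not far from that of all genes. In bulk tissue, fewer cells of a type and less RNA per cell cannot be told apart.

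Npas4 differed most of the 10. Its level was 23.1 and 9.58 RPM in the knockout-labelled libraries and 15.6 and 12.4 RPM in the wild-type libraries at 20 weeks, against 2.63 and 2.90 RPM in the knockout-labelled and 2.13 and 2.13 RPM in the wild-type libraries at 8 weeks. The lowest library at 20 weeks was above the highest at 8 weeks by more than any difference among the 8-week libraries. The means were 15.1 ± 5.81 RPM at 20 weeks and 2.45 ± 0.383 RPM at 8 weeks (SD, n = 4 each). On log2(RPM + 1), a scale that understates the change of low genes, the fold change was 2.17 ± 0.20 (SE, limma adjusted p = 7.6e-08). The reads behind it numbered 665 to 2631 per library at 20 weeks and 238 to 503 at 8 weeks. Over 17 alternatives the log2 fold change of Npas4 ran from 1.87 to 2.52 and the adjusted p from 5.6e-26 to 0.0017.

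Egr1 stood at 177 and 117 RPM in the knockout-labelled and 150 and 113 RPM in the wild-type libraries at 20 weeks, against 58.8 and 92.4 RPM in the knockout-labelled and 66.9 and 72.7 RPM in the wild-type libraries at 8 weeks. Again the 20-week libraries were all above the 8-week ones, with means of 139 ± 30.4 RPM at 20 weeks and 72.7 ± 14.3 RPM at 8 weeks (SD, n = 4 each). The log2 fold change of Egr1 was 0.92 ± 0.20 (SE, limma adjusted p = 0.0013), and it ran from 0.54 to 1.08 over the alternatives with adjusted p from 3.5e-06 to 0.022.

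Nr4a2 stood at 20.9 and 20.5 RPM in the knockout-labelled and 20.4 and 17.2 RPM in the wild-type libraries at 20 weeks, against 9.02 and 12.003 RPM in the knockout-labelled and 11.04 and 11.4 RPM in the wild-type libraries at 8 weeks. The groups did not overlap, and the spread at 20 weeks was small, with means of 19.7 ± 1.74 RPM at 20 weeks and 10.9 ± 1.29 RPM at 8 weeks (SD, n = 4 each). The log2 fold change of Nr4a2 was 0.81 ± 0.15 (SE, limma adjusted p = 0.00032), with 0.46 to 0.90 and adjusted p of 2.6e-12 to 0.0046 over the alternatives.

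Nr4a1 stood at 87.5 and 52.1 RPM in the knockout-labelled and 74.0 and 43.6 RPM in the wild-type libraries at 20 weeks, against 39.5 and 42.0 RPM in the knockout-labelled and 33.6 and 38.8 RPM in the wild-type libraries at 8 weeks. The groups did not overlap, but the lowest 20-week library was close to the highest 8-week one. The log2 fold change of Nr4a1 was 0.68 ± 0.20 (SE, limma adjusted p = 0.011). This call rested on single libraries, since the adjusted p of Nr4a1 was 0.092 without knockout-labelled replicate 1 of 20 weeks (log2 fold change 0.49) and 0.086 without wild-type replicate 1 of that age (0.49). By edgeR on the reads recovered from the RPM values it was 0.069 (0.49), and over all 17 alternatives it ran from 0.0029 to 0.23.

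The 6 other genes had positive log2 fold changes that did not pass by limma. They were 0.40 ± 0.17 for Klf4 (limma adjusted p = 0.078), 0.39 ± 0.22 for Jun (0.19), 0.37 ± 0.23 for Fosb (0.23), 0.22 ± 0.22 for Fos (0.47), 0.20 ± 0.19 for Ier2 (0.42) and 0.08 ± 0.22 for Junb (0.8). Fos stood at 424 and 321 RPM in the knockout-labelled and 433 and 275 RPM in the wild-type libraries at 20 weeks, against 283 and 387 RPM in the knockout-labelled and 290 and 279 RPM in the wild-type libraries at 8 weeks. Its highest 8-week library lay above 2 of the 4 libraries at 20 weeks. Fosb ranged from 253 to 453 RPM at 20 weeks and from 232 to 338 RPM at 8 weeks, Jun from 133 to 245 and from 126 to 176 RPM, and Junb from 45.5 to 91.7 and from 50.5 to 83.7 RPM. All of these ranges overlapped. Ier2 ranged from 12.3 to 24.1 RPM at 20 weeks and from 13.6 to 20.3 RPM at 8 weeks, and Klf4 from 10.1 to 19.2 and from 8.63 to 14.6 RPM. Klf4 passed without knockout-labelled replicate 2 of 8 weeks (log2 fold change 0.54, limma adjusted p = 0.0078) and over genes with at least 5 RPM (adjusted p = 0.048).

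**Figure D2:**
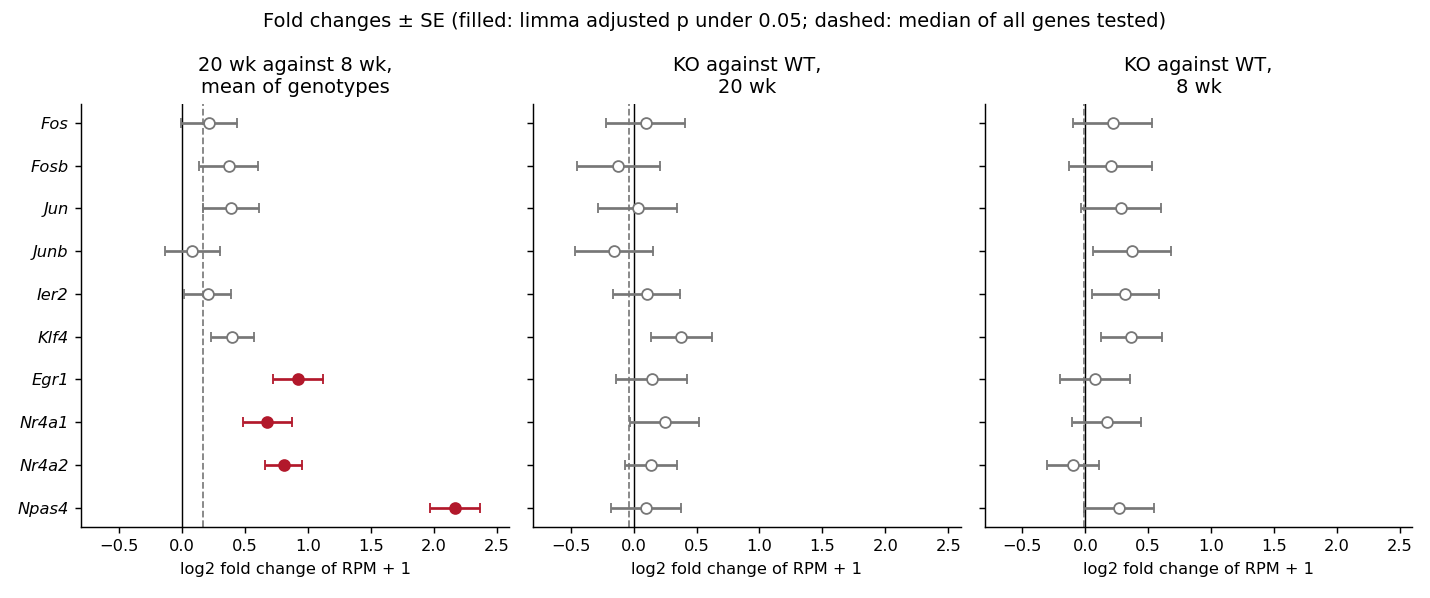
Log2 fold changes of RPM + 1 with their limma standard errors for the 10 genes, at 20 against 8 weeks (left) and for knockout-labelled against wild-type libraries at 20 weeks (middle) and 8 weeks (right). Filled points passed an adjusted p of 0.05 and dashed lines mark the median of all genes tested. Egr1, Nr4a1, Nr4a2 and Npas4 passed on the left, and no gene passed in the genotype comparisons.

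The scaling of the libraries bore on this comparison. The median log2 fold change of all genes tested was 0.17 on RPM, -0.02 with median-of-ratios scaling and -0.17 with scaling to reads in listed genes, the last of which was chosen after the data were seen. The median of the 10 genes was 0.39, 0.18 and 0.02 under these scalings, so it lay above that of all genes by a similar amount each time. Npas4 (1.98 and 1.99), Egr1 (0.70 and 0.54) and Nr4a2 (0.60 and 0.46) passed with median-of-ratios scaling and with scaling to reads in listed genes as well. Nr4a1 did not pass (0.46, limma adjusted p = 0.086, and 0.30, adjusted p = 0.23). Fos and Ier2 were just below 0 with median-of-ratios scaling (both -0.0088), as was Junb (-0.14), so the sign of these 3 genes depended on the scaling. Among all genes the split of calls moved from 4164 higher and 807 lower on RPM to 3908 and 3938 with median-of-ratios scaling, 2717 and 5418 with scaling to reads in listed genes, and 3842 and 3988 by edgeR. In each of these fits 3 or 4 of the 10 genes were called higher and 0 lower.

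Reads of 1 gene per 100 reads of the AP-1 genes Fos, Fosb, Jun and Junb together do not depend on how a library is scaled. Npas4 had 2.01 and 1.25 reads per 100 AP-1 reads in the knockout-labelled and 1.27 and 1.70 in the wild-type libraries at 20 weeks, against 0.374 and 0.294 in the knockout-labelled and 0.300 and 0.304 in the wild-type libraries at 8 weeks. Egr1 had 12.3 to 15.5 at 20 weeks and 8.37 to 10.4 at 8 weeks. Nr4a1 had 5.99 to 7.61 and 4.27 to 5.63, and Nr4a2 had 1.67 to 2.68 and 1.22 to 1.62, at 20 and 8 weeks. The 4 libraries at 20 weeks were above the 4 at 8 weeks for each of these genes, by little for Nr4a1 and Nr4a2. The share of all genes that do so on this ratio was not computed, and on RPM it was 30.4%. These 4 genes were called higher on RPM and the AP-1 genes were not, so their separation follows in part from those calls. Ier2 (1.70 to 2.09 at 20 weeks and 1.91 to 2.11 at 8 weeks) and Klf4 (1.18 to 1.76 and 1.22 to 1.49) overlapped. The ratio compares genes within a library and shows unequal change only.

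**Figure D3:**
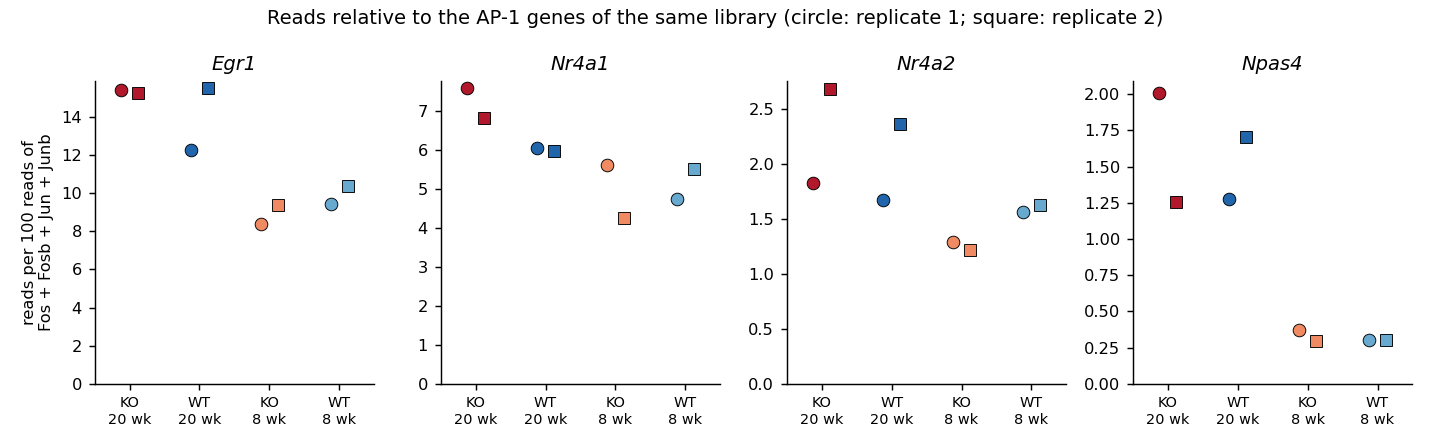
Reads of Egr1, Nr4a1, Nr4a2 and Npas4 per 100 reads of Fos, Fosb, Jun and Junb in the same library, by group, with circles for replicate 1 and squares for replicate 2. All 4 libraries at 20 weeks lie above all 4 at 8 weeks for each gene, widest for Npas4 (1.25 to 2.01 against 0.294 to 0.374). The share of all genes that do so on this ratio was not computed.

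Within the knockout-labelled libraries, 3 of the 10 genes were called higher at 20 weeks than at 8 weeks, against 19.8% of all genes. They were Npas4 (log2 fold change 2.08 ± 0.28, limma adjusted p = 2e-05), Nr4a2 (0.93 ± 0.21, adjusted p = 0.0036) and Egr1 (0.96 ± 0.28, adjusted p = 0.02), while Nr4a1 did not pass (0.72 ± 0.28, adjusted p = 0.072). In 4 genes, these and Nr4a1, both 20-week libraries lay above both 8-week libraries, as in 38.0% of all genes. Egr1 lost its call without replicate 1 of 20 weeks (0.65, adjusted p = 0.27) or without replicate 1 of 8 weeks (0.63, adjusted p = 0.1). Nr4a1 passed without replicate 2 of 20 weeks (1.08, adjusted p = 0.035) and Klf4 without replicate 2 of 8 weeks (0.68, adjusted p = 0.03).

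Within the wild-type libraries the same 3 genes passed, against 16.9% of all genes. Npas4 had a log2 fold change of 2.25 ± 0.28 (limma adjusted p = 8.8e-06), Nr4a2 of 0.69 ± 0.21 (adjusted p = 0.027) and Egr1 of 0.89 ± 0.28 (adjusted p = 0.034), and Nr4a1 did not pass (0.64 ± 0.28, adjusted p = 0.12). In 7 genes both 20-week libraries lay above both 8-week libraries, as in 50.7% of all genes. The count of 3 fell to 1, Npas4, without replicate 1 of 20 weeks and without either replicate of 8 weeks. Nr4a2 also lost its call without replicate 2 of 20 weeks (0.81, adjusted p = 0.062), and Nr4a1 passed there (1.02, adjusted p = 0.041). Over all 8 libraries the 4 at 20 weeks lay above the 4 at 8 weeks for Egr1, Nr4a1, Nr4a2 and Npas4, as they did for 30.4% of all genes. The 2 contrasts by genotype share no library, but both confound age with diet.

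Knockout-labelled and wild-type libraries were then compared at each setting, and no immediate early gene was called by limma, edgeR or DESeq2. At 20 weeks the count was 0 of 10, against 0.045% of all genes. Log2 fold changes ran from -0.15 ± 0.31 for Junb to 0.38 ± 0.24 for Klf4, with a median of 0.10 against -0.04 for all genes. No gene of the 10 had an unadjusted p under 0.05 by limma, and 1 had by edgeR and 1 by DESeq2. With 2 libraries a group and standard errors of 0.21 to 0.33, modest differences were not detectable. The 2 libraries of each genotype overlapped for 9 of the 10 genes at 20 weeks. The exception was Nr4a2, at 20.9 and 20.5 RPM in the knockout-labelled against 20.4 and 17.2 RPM in the wild-type libraries (0.14 ± 0.21, limma adjusted p = 1), where 12.3% of all genes were higher without overlap.

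At 8 weeks the count was again 0 of 10, against 0.21% of all genes, and none of the 10 had an unadjusted p under 0.05 by any of the 3 tools. Of the 10 log2 fold changes 9 were positive, as were 5991 of all 13347, with a median of 0.24 against -0.01 for all genes. The 10 genes varied together, so their signs are not separate results. Between the 2 libraries of a group at 20 weeks their median differences were larger, 0.61 in the knockout-labelled and 0.69 in the wild-type group. For 6 genes, Jun, Junb, Ier2, Nr4a1, Npas4 and Klf4, both knockout-labelled libraries were above both wild-type libraries in RPM, where 7.42% of all genes were. With median-of-ratios scaling 7 genes were higher without overlap and 1, Nr4a2, was lower, against 15.4% and 16.1% of all genes. With scaling to reads in listed genes 5 were higher and again Nr4a2 lower, against 8.19% and 23.9%.

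The differences behind this count at 8 weeks did not pass the test. Npas4 had 2.63 and 2.90 RPM in the knockout-labelled against 2.13 and 2.13 RPM in the wild-type libraries (0.27 ± 0.28, limma adjusted p = 1). Klf4 had 9.61 and 14.6 RPM in the knockout-labelled against 8.63 and 9.36 RPM in the wild-type libraries (0.37 ± 0.24, limma adjusted p = 1). Junb had 51.7 and 83.7 RPM in the knockout-labelled against 50.9 and 50.5 RPM in the wild-type libraries (0.37 ± 0.31, adjusted p = 1). Ier2 had 14.8 and 20.3 RPM in the knockout-labelled against 13.6 and 14.0 RPM in the wild-type libraries (0.32 ± 0.27, adjusted p = 1). In RPM, replicate 1 of the knockout-labelled group was close to the wild-type libraries for Klf4, Junb and Ier2 and replicate 2 was higher. With median-of-ratios scaling both replicates stood clear of wild type, for example at 18.98 and 18.76 in the knockout-labelled against 15.35 and 14.24 in the wild-type libraries for Ier2 and at 12.3 and 13.5 against 9.78 and 9.56 for Klf4. Without replicate 2 the log2 fold changes in RPM of Fos (-0.0043), Fosb (-0.07), Egr1 (-0.24) and Nr4a2 (-0.28) were negative. Replicate 1 was lower in RPM than replicate 2 for 94.0% of all genes. With median-of-ratios scaling replicate 1 was above both wild-type libraries for Fos (363, against 329 and 285) and Fosb (297, against 274 and 250), between them for Egr1 and below both for Nr4a2. Markers of other cells also differed between these groups. Leukocyte markers summed to 28.1 and 28.1 RPM in the knockout-labelled against 60.05 and 71.1 RPM in the wild-type libraries, with 5 of 10 tested called lower, and acinar markers summed to 20356 and 10355 RPM against 2590 and 7438 RPM, with 1 of 11 called higher. Neuron and glia markers summed to 27.2 and 31.7 RPM in the knockout-labelled against 41.9 and 28.6 RPM in the wild-type libraries, with 3 of 6 tested called lower. Among all 13347 genes 2 were called higher and 26 lower on RPM. With median-of-ratios scaling 2 leukocyte markers were called lower, and 0 acinar and 0 neuron and glia markers were called. All genes then had 0 higher and 9 lower. The part of these other cells in the values of the immediate early genes was not tested.

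The genotype difference did not differ detectably between the settings for any of the 10 genes. The difference of the genotype contrasts, 20 weeks minus 8 weeks, was called for 0 of 10 by limma, against 0.0674% of all genes, and for 0 by edgeR and by DESeq2, and none of the 10 had an unadjusted p under 0.05 in any of the 3. It ran from -0.52 ± 0.44 for Junb to 0.23 ± 0.29 for Nr4a2 on the log2 scale.

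The 2 libraries of a group differed in these genes together. At 20 weeks all 10 genes were higher in replicate 1 than in replicate 2 of the knockout-labelled group, where 33.0% of all genes were, with a median difference of 0.61 on log2(RPM + 1) against -0.10 for all genes. The same held for all 10 in the wild-type group at 20 weeks, where 83.1% of all genes were higher in replicate 1, with a median of 0.69 against 0.18. Junb, for example, had 72.2 and 46.6 RPM in the knockout-labelled libraries and 91.7 and 45.5 RPM in the wild-type libraries at that age. At 8 weeks all 10 genes were higher in replicate 2 of the knockout-labelled group, but so were 94.0% of all genes, with a median difference of -0.44 for the 10 genes and -0.38 for all. In the wild-type group at 8 weeks 8 of 10 were higher in replicate 2, as were 74.4% of all genes, with a median of -0.03 against -0.11. A replicate number is only a name here and links no libraries across groups.

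Other gene groups moved with this spread to unlike degrees. At 20 weeks the 7 heat shock genes summed to 899 and 878 RPM in replicates 1 and 2 of the knockout-labelled group. They summed to 803 and 435 RPM in the wild-type group of that age. At 8 weeks they summed to 391 and 500 RPM in the knockout-labelled and 471 and 536 RPM in the wild-type group. At 20 weeks 7 of 7 were higher in replicate 1 of the wild-type group and 4 of 7 in that of the knockout-labelled group. The 11 acinar markers, of the enzyme-secreting pancreas, summed to 7422 and 8781 RPM in the knockout-labelled and 8553 and 23964 RPM in the wild-type group at 20 weeks. They summed to 20356 and 10355 RPM in the knockout-labelled and 2590 and 7438 RPM in the wild-type group at 8 weeks, and none was at 0. The part of stress or of acinar cells in the differences between libraries was not tested.

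**Figure D4:**
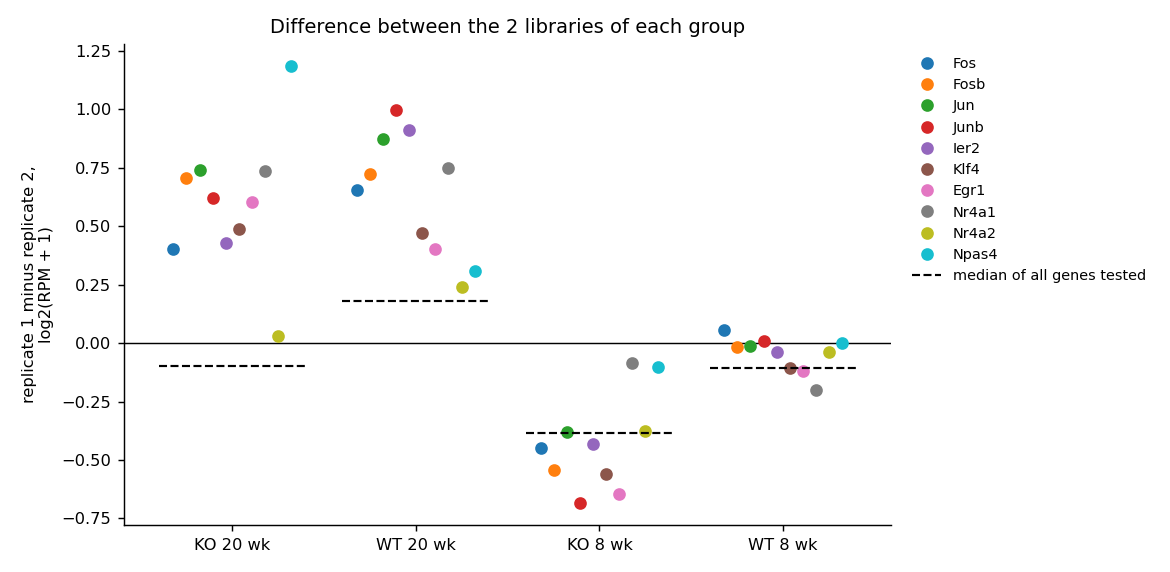
Replicate 1 minus replicate 2 on log2(RPM + 1) for the 10 genes in each group, with dashed lines at the median of all genes tested. At 20 weeks the 10 genes lie above 0 in both groups and above the dashed line, with medians of 0.61 and 0.69 in the knockout-labelled and wild-type groups.

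The likeness of the genes' profiles is described by Pearson's r of log2(RPM + 1) over 8 libraries that differ in age, diet and depth. Over all 45 pairs the median r was 0.83, with a range of 0.26 to 0.98. Fos, Fosb, Jun, Junb and Ier2 followed each other closely (10 pairs, r of 0.87 to 0.98). Among Npas4, Egr1, Nr4a1 and Nr4a2 r was 0.82 to 0.95 (6 pairs). This second set holds the genes called higher at 20 weeks in these same libraries. A high r within it, and a lower r with genes not called, thus follow in part from that choice. Between these sets r was lower, 0.26 to 0.90 over 20 pairs. Klf4 was placed in neither set. Its r was 0.69 (Junb) to 0.90 (Fos) with the first set and 0.70 (Nr4a2) to 0.87 (Nr4a1) with the second. After the mean of each group was taken away, the 10 pairs of the AP-1 genes and Ier2 still had r of at least 0.95, whereas the pairs among Npas4, Egr1, Nr4a1 and Nr4a2 had 0.27 at the least and a median of 0.77. The 20 pairs between these sets then had 0.62 at the least and a median of 0.85, above the median among Npas4, Egr1, Nr4a1 and Nr4a2. With 2 libraries a group, these r rest on only 1 replicate difference per group. In the wild-type group at 8 weeks that difference was small (median -0.03 over the 10 genes). The r of other gene pairs was not computed for comparison.

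Outside the 10 genes, the profiles most like their mean standardised profile were those of Dusp8 (r = 0.991), Krt8 (0.982), Tuft1 (0.981), Dusp1 (0.979) and Optn (0.978), as Pearson's r over 8 libraries. Dusp1 and Dusp8 encode phosphatases that switch off MAP kinases, and Krt8 encodes an epithelial keratin. Dusp8 had 18.5 and 12.4 RPM in the knockout-labelled and 18.5 and 10.6 RPM in the wild-type libraries at 20 weeks, against 9.86 and 13.5 RPM in the knockout-labelled and 9.91 and 9.07 RPM in the wild-type libraries at 8 weeks. It was high in replicate 1 of both 20-week groups, as the AP-1 genes were. Of 13337 other genes 193 had an r above 0.9, and of 82 tested pathway genes 8 had.

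Further genes of the same response were taken from 5 lists of 90 genes, of which 82 were tested. At 20 against 8 weeks 31 were called higher and 4 lower by limma (31.2% and 6.05% of all genes), with a median log2 fold change of 0.33 against 0.17 for all genes. The split was 27 higher and 11 lower with median-of-ratios scaling, where 3908 and 3938 of all 13305 genes were. It was 17 and 16 with scaling to reads in listed genes, where 2717 and 5418 of all 14315 genes were. The genotype comparisons called 0 of the 82 by limma at 20 weeks (0.045% of all genes) and 0 at 8 weeks (0.21%), where 3 and 2 had an unadjusted p under 0.05. edgeR called 0 at either age. DESeq2 called 0 at 20 weeks, where it called 74 of all 13347 genes higher and 65 lower. At 8 weeks it called 1 higher and 1 lower, against 31 and 111 of all genes.

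Among 7 other AP-1 genes, 4 were called higher at 20 weeks (31.2% of all genes on RPM), also under each other scaling and by edgeR and DESeq2. They were the small Maf factor Maff (log2 fold change 1.34 ± 0.18, limma adjusted p = 1.4e-05), the Fos relatives Fosl1 (0.96 ± 0.16) and Fosl2 (0.78 ± 0.16), and the stress-induced factor Atf3 (1.09 ± 0.23). Maff had 57.0 and 43.8 RPM in the knockout-labelled and 59.6 and 41.1 RPM in the wild-type libraries at 20 weeks, against 16.3 and 27.1 RPM in the knockout-labelled and 16.1 and 18.2 RPM in the wild-type libraries at 8 weeks. Its 20-week libraries were all higher, unlike those of Fos and Fosb. Atf3 had 124 to 233 RPM at 20 weeks and 69.5 to 138 RPM at 8 weeks, and the ranges overlapped. Jund, Jdp2 and Mafk did not pass.

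Of the Egr and Nr4a relatives 3 were tested, and Nr4a3, the remaining orphan receptor of its family, was called higher at 20 weeks (1.09 ± 0.19, limma adjusted p = 0.00025). It had 4.39 and 1.87 RPM in the knockout-labelled and 2.95 and 1.33 RPM in the wild-type libraries at 20 weeks, against 0.408 and 0.574 RPM in the knockout-labelled and 0.599 and 0.955 RPM in the wild-type libraries at 8 weeks. All Nr4a genes were therefore called higher at 20 weeks on RPM (31.2% of all genes), with Nr4a1 the one whose call was lost with other scalings. The Egr corepressors Nab1 and Nab2 did not pass.

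Of 36 other immediate early genes 10 were higher and 3 lower at 20 weeks, shares near those of all genes (31.2% and 6.05%). With median-of-ratios scaling 8 were higher and 7 lower, where all genes split into 3908 and 3938. Those with the smallest p were Csrnp1 (1.13 ± 0.17, limma adjusted p = 4.6e-05), Rgs2, an inhibitor of G protein signalling (1.498 ± 0.26), the clock gene Per1 (1.07 ± 0.19), and the growth arrest gene Gadd45b (0.97 ± 0.19). Lower were the kinase gene Sgk1 (-0.54 ± 0.16, adjusted p = 0.014), Id3 (-0.53 ± 0.16) and Gadd45g (-0.44 ± 0.15). Rgs2 had 108 and 241 RPM in the knockout-labelled and 184 and 110 RPM in the wild-type libraries at 20 weeks, against 52.8 and 75.1 RPM in the knockout-labelled and 63.4 and 31.4 RPM in the wild-type libraries at 8 weeks. In the knockout-labelled group it was higher in replicate 2, unlike the 10 genes.

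Of 11 MAP kinase phosphatases and feedback inhibitors 4 were higher (31.2% of all genes), namely Spred2 (1.30 ± 0.19, limma adjusted p = 2.9e-05), Spry4 (0.49 ± 0.14), Dusp10 (0.59 ± 0.20) and Spred1 (0.50 ± 0.17). The count was 3 higher and 1 lower with median-of-ratios scaling, 1 and 1 with scaling to reads in listed genes, and 2 and 1 by edgeR. Of 25 upstream factors and kinases 12 were higher and 1 lower on RPM, where 31.2% and 6.05% of all genes were. The counts of this list are given on RPM only, so they do not show whether these calls hold under other scalings. The median log2 fold change of all genes was 0.17 on RPM. It was -0.02 with median-of-ratios scaling and -0.17 with scaling to reads in listed genes. The calcium-responsive factors Mef2d (0.94 ± 0.17, adjusted p = 0.0004) and Mef2a (0.998 ± 0.19), the CREB coactivator gene Crtc3 (0.92 ± 0.17) and the serum response factor coactivator gene Mkl1 (0.89 ± 0.18) had the smallest p, and Mapk3, which encodes the kinase ERK1, was lower (-0.72 ± 0.15, adjusted p = 0.00093). Mef2a had 88.9 and 99.0 RPM in the knockout-labelled and 94.6 and 81.1 RPM in the wild-type libraries at 20 weeks, against 32.5 and 58.0 RPM in the knockout-labelled and 41.8 and 51.4 RPM in the wild-type libraries at 8 weeks.

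**Figure D5:**
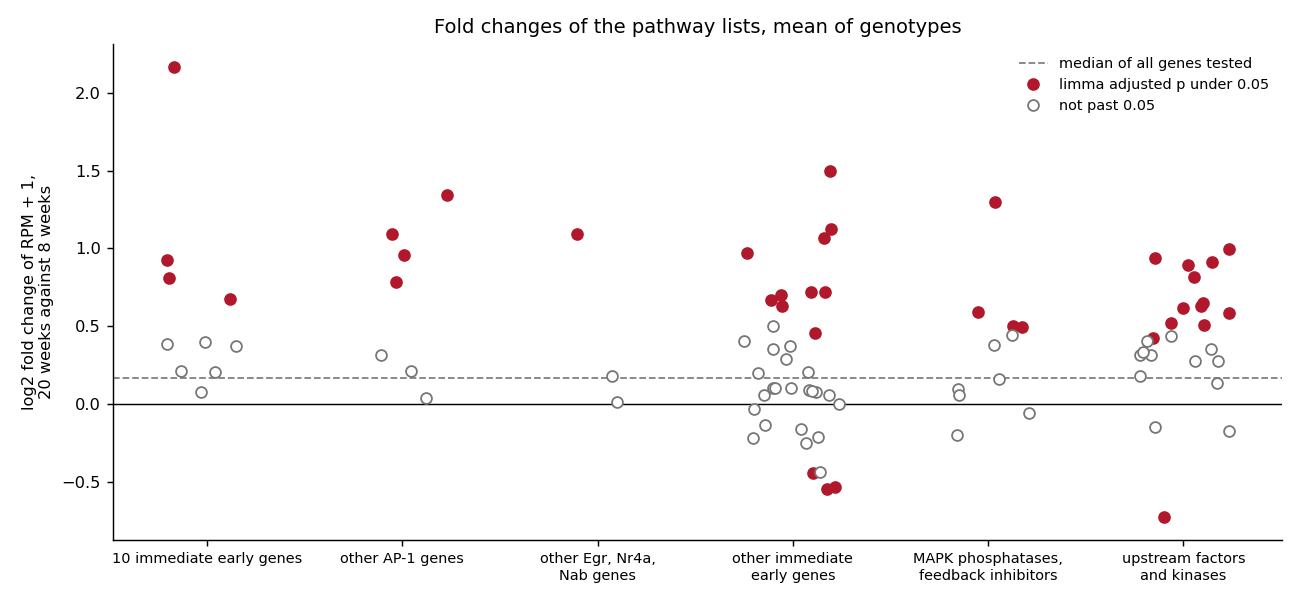
Log2 fold changes of RPM + 1 at 20 against 8 weeks, averaged over genotypes, for the 10 genes and the 5 lists, with filled points for a limma adjusted p under 0.05 and a dashed line at the median of all genes tested (0.17). Npas4 is the highest point at 2.17, and 31 of 82 listed genes are filled above 0.

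In the genotype comparisons the list genes with the smallest limma p did not pass by limma either. At 20 weeks they included Fosl2 (0.52 ± 0.23), Jund (-0.70 ± 0.31), Cyr61, a matrix-associated growth factor gene (0.75 ± 0.34), and Ier3 (0.46 ± 0.22), each with a limma adjusted p of 1. At 8 weeks they included Gadd45b (0.72 ± 0.26, adjusted p = 0.72) and Mef2c (-0.64 ± 0.26, adjusted p = 0.94).

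Markers of other cells also changed between 20 and 8 weeks. Calls are on RPM, where 31.2% of all genes were called higher and 6.05% lower, averaged over genotypes. With median-of-ratios scaling all genes split into 3908 higher and 3938 lower. Within the knockout-labelled libraries 296 of all 13347 genes were called lower, and within the wild-type libraries 16.9% were called higher. The 8 neuron and glia markers summed to 16.4 to 20.9 RPM at 20 weeks and to 27.2 to 41.9 RPM at 8 weeks, with 4 of 6 tested lower and none at 0, while Npas4, which neurons also express, was higher at 20 weeks. Stromal and mural markers summed to 21.7 to 39.3 RPM at 20 weeks and to 37.3 to 71.3 RPM at 8 weeks, with 4 of 6 tested lower. Leukocyte markers summed to 24.7 to 38.6 and to 28.1 to 71.1 RPM, with 4 of 10 lower and 1 higher, and the lymphocyte genes Cd79b, Ms4a1 and Cd3e were at 0 in 1 to 3 libraries. Endothelial markers summed to 75.7 to 133 and to 81.2 to 135 RPM, with 1 of 8 higher and 1 lower. Islet endocrine markers summed to 41602 to 60761 RPM at 20 weeks and to 55427 to 63684 RPM at 8 weeks, with 3 of 11 lower, and duct markers to 103 to 132 and to 136 to 209 RPM, with 1 of 7 higher and 3 lower. Of the 7 heat shock genes 3 were higher. Of 11 acinar markers 1 was called lower at 20 weeks in the knockout-labelled libraries (median log2 fold change -0.85), 8 were called higher in the wild-type libraries (median 1.75) and 1 was called higher averaged over genotypes. The part of these cells in the differences of the immediate early genes was not tested.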

How the data were processed

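The data are total RNA of mouse islets, depleted of ribosomal RNA (RiboZero) and sequenced from TruSeq libraries, per the labels' protocols. CASAVA 1.8, FastQC, TopHat 1.4.1 and the build mm9 are named per the submitters' processing notes. The counting tool, annotation and use of strand are given by no source used here. The authors deposited RPM values, reads scaled to the library total. They were whole multiples of 1 read in 100% of cases within 0.01 of a read. Where a symbol stood on several rows, the most abundant row was used under it (135 rows set aside).

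The tests took 13347 genes that reached 1 RPM in 2 or more libraries, including all 10 immediate early genes. limma 3.58.1 in R 4.3.3 fitted the 4 group means on log2(RPM + 1) over all 8 libraries with a mean-variance trend, and p-values were adjusted over all genes (Benjamini-Hochberg) and called under 0.05. Errors of fold changes are standard errors. The labels do not say that libraries came from separate animals, so a p-value reflects only how these samples vary, which may be technical. edgeR 4.0.16 (quasi-likelihood, TMM) and DESeq2 1.42.0 were run on the recovered whole reads. At 20 against 8 weeks edgeR called 3842 genes higher and 3988 lower, and for genotype limma called 6 genes at 20 weeks and 28 at 8 weeks. The fits were tested on simulated data.

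The members and the lists were chosen with earlier results of these data known. Named were all members, Tcf7, up to 4 called genes per list and direction with the smallest p (2 where none was called) and the 5 genes with the most similar profile. Of these, not every gene is given at each comparison. Alternatives were median-of-ratios scaling, reads in listed genes, other filters, pseudocount, variance model and threshold, the compared libraries alone, edgeR, DESeq2 and leaving out each library. Exon lengths and overlaps came from GENCODE M21 and promoters from RefSeq, both on GRCm38, not the authors' build. Values were described and drawn with pandas 2.3.3 and matplotlib 3.10.9 under Python 3.11.15.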

Additional observations from a re-analysis of the deposited data

How the results depend on the processing

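Npas4, Egr1 and Nr4a2 were called higher at 20 weeks, averaged over genotypes, under all 17 alternatives, and Nr4a1 lost its call under 6, among them no filter (limma adjusted p = 0.066). The count of 4 was 3 to 5 when 1 library was left out. It was 2 to 4 against 3 in the knockout-labelled libraries, and 1 to 3 against 3 in wild type, where it was also 1 with scaling to reads in listed genes and with no filter. The genotype comparisons called 0 of the 10 genes under every alternative run. Of 1060 recomputed fold changes 947 kept their direction and side of the threshold, 21 lost a call, 9 gained one and 83 changed sign, none of these with a call. The cause was not tested.

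Sign changes at 20 against 8 weeks, averaged over genotypes (log2 fold changes), were -0.0088 for Fos, -0.14 for Junb and -0.0088 for Ier2 with median-of-ratios scaling. With scaling to reads in listed genes, which was chosen after seeing the data, they were -0.17 for Fos, -0.018 for Fosb, -0.0013 for Jun, -0.30 for Junb and -0.17 for Ier2. They were -0.0031 for Fos and -0.11 for Junb by edgeR, and -0.077 for Junb by DESeq2. In the knockout-labelled libraries they were -0.062 for Fos, -0.0070 for Fosb and -0.11 for Ier2 with median-of-ratios scaling, -0.16 for Fos, -0.11 for Fosb, -0.053 for Jun and -0.21 for Ier2 with scaling to reads in listed genes, -0.047 for Fos and -0.098 for Ier2 by edgeR, and -0.0090 for Fos and -0.058 for Ier2 by DESeq2. In wild type they were -0.19 for Fos, -0.11 for Junb, -0.13 for Ier2 and -0.033 for Klf4 with scaling to reads in listed genes, and the difference of the genotype contrasts was 0.026 for Fos there.

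Leaving out 1 library gave these lowest and highest log2 fold changes where a sign changed. For genotype at 20 weeks they were -0.23 and 0.42 for Fos, -0.48 and 0.24 for Fosb, -0.41 and 0.47 for Jun, -0.65 and 0.34 for Junb, -0.16 and 0.44 for Egr1, -0.35 and 0.56 for Ier2, -0.13 and 0.62 for Nr4a1, and -0.49 and 0.69 for Npas4. For genotype at 8 weeks they were -0.0043 and 0.44 for Fos, -0.070 and 0.47 for Fosb, -0.24 and 0.40 for Egr1, and -0.28 and 0.091 for Nr4a2. For the difference of these they were -0.45 and 0.20 for Fos, -0.68 and 0.039 for Fosb, -0.69 and 0.19 for Jun, -0.26 and 0.39 for Egr1, -0.67 and 0.24 for Ier2, -0.30 and 0.45 for Nr4a1, -0.76 and 0.43 for Npas4, and -0.27 and 0.29 for Klf4. For age in the knockout-labelled libraries they were -0.068 and 0.38 for Fos, -0.14 and 0.56 for Fosb, -0.11 and 0.63 for Jun, -0.52 and 0.16 for Junb, and -0.12 and 0.31 for Ier2. In wild type they were -0.050 and 0.60 for Fos, -0.15 and 0.84 for Junb, and -0.14 and 0.77 for Ier2, and averaged over genotypes -0.17 and 0.33 for Junb and -0.024 and 0.43 for Ier2.

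A group left with 1 library was assumed to vary like the others. The fit of the compared libraries alone gives no value for the mean over genotypes or the difference of the genotype contrasts, which need all 8. No paired analysis was possible because the labels give no shared replicate numbers. Each of the 10 genes had 238 reads or more in every library, and with 2 libraries a group only large differences were detectable.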

Other observations

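Of the 90 pathway genes 8 did not pass the filter on low values, among them the 3 other members of the Egr family. Egr2 stood at 0.766 and 0.591 RPM in the knockout-labelled and 0.308 and 0.237 RPM in the wild-type libraries at 20 weeks, against 0.115 and 0.317 RPM in the knockout-labelled and 0.197 and 0.219 RPM in the wild-type libraries at 8 weeks. Egr3 ranged from 0.0592 to 0.255 RPM at 20 weeks and from 0.0732 to 0.143 RPM at 8 weeks. Egr4 was at 0 in 1 library of each age and at most 0.289 RPM. The others were Batf, Batf3, Ier5l, Dusp2 and Ptgs2, the last of which encodes the inducible cyclooxygenase and stayed at or below 0.274 RPM.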
